A study of Mus musculus with 6 samples.

Results

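The nuclear-encoded subunits of respiratory complexes II, III, IV and V, with cytochrome c, were taken from the deposited count table by gene symbol: Sdha, Sdhb, Sdhc, Sdhd, Cyc1, Cycs and every symbol that starts with Uqcr, Cox4i, Cox5, Cox6, Cox7, Cox8 or Atp5, leaving out symbols with -ps. This rule found 50 of the 55453 gene symbols. Of these, 48 were subunits or cytochrome c: 4 of complex II, 9 of complex III, 1 cytochrome c gene, 17 of complex IV and 17 of complex V. The other 2 were Cox7a2l, a factor that joins complexes III and IV into supercomplexes, and Cox6c2, which the annotation gives as a processed pseudogene. Counts were high enough for a test in 43 of the 50, and the 7 that were not tested are all complex IV isoforms or Cox6c2.

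Messages were measured by sequencing of poly(A)-selected RNA in 6 libraries from the mouse glioma line SB28, with the strain label C57BL/6 on both groups. The genotype label is PP2A KO for 3 libraries and Wild Type for 3, and the titles name PP2Ac, which is the catalytic part of the phosphatase PP2A. The design text describes SB28 tumours grown in wild-type mice and in mice with a floxed PP2Ac allele and LysM-driven Cre, which acts in myeloid cells. By contrast, SB28 itself is the source named for each sample. The labels do not settle which cells carried the deletion, whether the RNA came from culture or tumour, how the knockout was made or whether replicates were separate cultures, so the p-values can speak only for variation among these libraries, possibly technical.

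Library totals ran from 38735864 to 49344079 counts, and the 50 genes took 0.5002% to 0.539% of the counts in the wild-type libraries and 0.3502% to 0.396% in the knockout libraries. The targeted gene Ppp2ca stood at 274, 244 and 247 CPM (counts scaled to library size) in wild type 1 to 3 and at 217, 187 and 193 CPM in knockout 1 to 3, so its message was lower but still abundant in the libraries labelled knockout (log2 fold change -0.36, SE 0.08, adjusted p = 0.00377, edgeR). The 11 macrophage and microglia markers summed to 3.25 to 3.60 CPM in wild-type and to 4.80 to 5.37 CPM in knockout libraries, most of it Cd68. Of the 11, Adgre1, C1qa, C1qb and Tyrobp had no count in any library. Only 1 of them was tested, and it was higher (log2 fold change 0.56). Ptprc, which was not tested, went the other way, with 31 and 11 counts over wild type and knockout. The 7 T and B cell markers summed to at most 0.128 CPM and the 5 erythroid markers to at most 0.101 CPM in any library. Among the glial markers, Olig2 had no count and Gfap had 5 counts over the wild-type libraries and 10 over the knockout libraries, while Vim, Nes and Sox2 were abundant. The summed glial markers stood between 6787 and 6909 CPM in wild-type and between 3926 and 4027 CPM in knockout libraries, and their part in the results below was not tested. That fall is largely Vim, at 4791 ± 98.3 CPM against 1882 ± 64.7 CPM (SD, n = 3). Of the 8 tested glial markers, 4 were lower, Vim among them, and 3 were higher. The lowest log2 fold change of the 8, -2.36, belongs to a marker other than Vim. The higher ones were Pdgfra, Pdgfb and Nras (log2 fold changes 0.30, 0.44 and 0.29, adjusted p = 0.00376, 0.00268 and 0.00761, edgeR). Over all tested genes, 32.1% were lower and 31.9% higher. The 5 endothelial markers summed to 397 to 429 CPM in wild-type and to 419 to 456 CPM in knockout libraries, nearly all of it Cdh5, with Tie1 and Cldn5 at or near 0, but Kdr was higher, with 225 and 973 counts over wild type and knockout (adjusted p = 2.33e-06, edgeR). The 5 neuron markers summed to 10.9 to 15.0 CPM and the 4 oligodendrocyte markers to 0.920 to 1.93 CPM over the 6 libraries; the neuron marker Snap25 was lower, with 178 and 18 counts over wild type and knockout (adjusted p = 4.69e-05, edgeR). In bulk RNA, fewer cells of a type and less RNA per cell cannot be told apart.

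The respiratory chain passes electrons from reduced cofactors to oxygen and stores the released energy as a proton gradient across the inner mitochondrial membrane. Complex II, which is also the succinate dehydrogenase of the tricarboxylic acid (TCA) cycle, feeds electrons into coenzyme Q, complex III hands them to the mobile carrier cytochrome c, complex IV gives them to oxygen, and complex V uses the gradient to make ATP. Complex II is built from nuclear genes alone, whereas complexes III, IV and V each combine nuclear-encoded subunits with a few encoded in mitochondrial DNA.

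Genes of the chain are known for promoters that carry sites of NRF1, of the ETS factor GABP, of YY1 and of oestrogen-related receptors, so the promoters of the members were searched for one short word of each. The words were GCGCATGCG for NRF1, CCGGAAGT for ETS factors, AAGATGGCG for YY1 and TCAAGGTCA for oestrogen-related receptors, on both strands, in windows of 300 bases from 250 before to 50 after the start site (RefSeq, GRCm38.p6). The NRF1 word is nearly its own reverse complement, so matches on both strands can overlap by all but 1 base. A promoter was matched for 37 of the 50 members, 1 of them through a synonym. The 6 windows below belong to members described in the results and show 1 or more of the matches; each holds 120 bases before and 30 after the start site, in the direction of transcription, and capitals mark the matched words.
Uqcrh (complex III): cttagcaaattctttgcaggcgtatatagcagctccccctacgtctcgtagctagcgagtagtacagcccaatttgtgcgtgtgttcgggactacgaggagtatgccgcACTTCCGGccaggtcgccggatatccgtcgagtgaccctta
Uqcr11 (complex III): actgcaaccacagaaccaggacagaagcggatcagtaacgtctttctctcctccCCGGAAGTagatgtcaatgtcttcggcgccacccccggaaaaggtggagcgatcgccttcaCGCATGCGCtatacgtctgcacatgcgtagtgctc
Cycs (cytochrome c): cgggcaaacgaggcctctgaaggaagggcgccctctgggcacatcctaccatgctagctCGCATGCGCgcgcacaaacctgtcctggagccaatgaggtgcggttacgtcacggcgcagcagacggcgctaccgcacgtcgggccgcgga
Cox8a (complex IV): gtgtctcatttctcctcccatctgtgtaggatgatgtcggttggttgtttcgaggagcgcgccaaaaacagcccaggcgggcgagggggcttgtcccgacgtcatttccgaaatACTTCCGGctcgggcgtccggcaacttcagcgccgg
Atp5g2 (complex V): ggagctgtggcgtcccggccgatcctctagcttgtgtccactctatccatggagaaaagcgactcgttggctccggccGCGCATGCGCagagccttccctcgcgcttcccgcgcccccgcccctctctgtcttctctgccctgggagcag
Atp5g3 (complex V): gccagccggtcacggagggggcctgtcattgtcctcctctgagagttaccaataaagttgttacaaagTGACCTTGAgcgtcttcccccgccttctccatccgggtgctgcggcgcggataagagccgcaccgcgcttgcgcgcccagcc
All 6 lie on the minus strand of GRCm38.p6, at chr4:116075041-116075190 (Uqcrh), chr10:80406792-80406941 (Uqcr11), chr6:50566540-50566689 (Cycs), chr19:7217587-7217736 (Cox8a), chr15:102671018-102671167 (Atp5g2) and chr2:73911297-73911446 (Atp5g3).

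The NRF1 word stood in 7 of 37 member promoters (18.9%) and in 1.95% of the 27025 genes with a promoter in the table. Its 7 members were Atp5g2, Atp5k, Atp5l, Cox6a1, Cycs, Uqcr11 and Uqcrc1. The ETS word was found in 4 members (10.8%, against 4.31% of all genes), which were Atp5h, Cox8a, Uqcr11 and Uqcrh. The YY1 word occurred in Atp5j and Atp5j2 (5.41% against 1.64%), and the receptor word in Atp5g3 and Sdhd (5.41% against 0.466%). Uqcr11 held both the NRF1 and the ETS word. At least 1 of the 4 words was present in 14 members (37.8%), against 7.93% of all genes. Among members with a promoter, 13 of the 27 that were lower in the knockout held a word, as did 1 of the 7 that were higher or not past the threshold. A match is a run of letters and not a measured site, and the difference between those 2 shares was not tested.

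Across the chain, most of these messages were less abundant in the knockout libraries, by a modest amount and in every complex. Of the 43 tested members, 33 were lower and 2 were higher, and 8 did not pass the threshold (edgeR's quasi-likelihood test, Benjamini-Hochberg adjusted p under 0.05 over all 14877 tested genes). In the background of all tested genes, 32.1% were lower and 31.9% were higher by the same rule. The median log2 fold change, knockout over wild type, was -0.44 over the 43 members, with a range from -1.60 to 0.29, beside -0.01 over all tested genes, and 40 of the 43 values lay below 0. Cox7a1, which holds the lowest value, passed the filter on low counts only through the wild-type libraries; without it 32 of 42 members were lower and 2 higher, with a median of -0.43 and a lowest value of -1.10 (Cox7a2). A change beyond 1.5-fold (edgeR's glmTreat) was called for 7 members, all lower: Uqcrh, Uqcr11, Cox7a1, Cox7a2, Atp5e, Atp5g2 and Atp5g3, or 6 without Cox7a1. By that rule 13.2% of all genes were lower and 13.5% higher. The 7 of 43 members are thus near the share of all genes. With the replicate number as a block, 11 members passed the 1.5-fold rule, and the 7 became 3 without wild type 3 or knockout 3 and 4 without knockout 1. The block also called more of all genes lower at the adjusted p threshold, 5774 of 14877 against 4773. The counts of all genes past 1.5-fold in those fits are not given here. Every knockout library lay below every wild-type library for 32 members, where 34.4% of all genes did so, and 2 members showed the reverse. Leaving out both libraries numbered 1, which stand apart from the others, gave 34 lower members, Cox6a1 being the addition, and 3 higher. That fit also called more of all genes, 5535 of 14906 lower and 5588 higher. The added higher member, Cox6a2, passed the filter only through the knockout libraries, where it is high, and is no support. These members were chosen with earlier results of these data known.

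**Figure D1:**
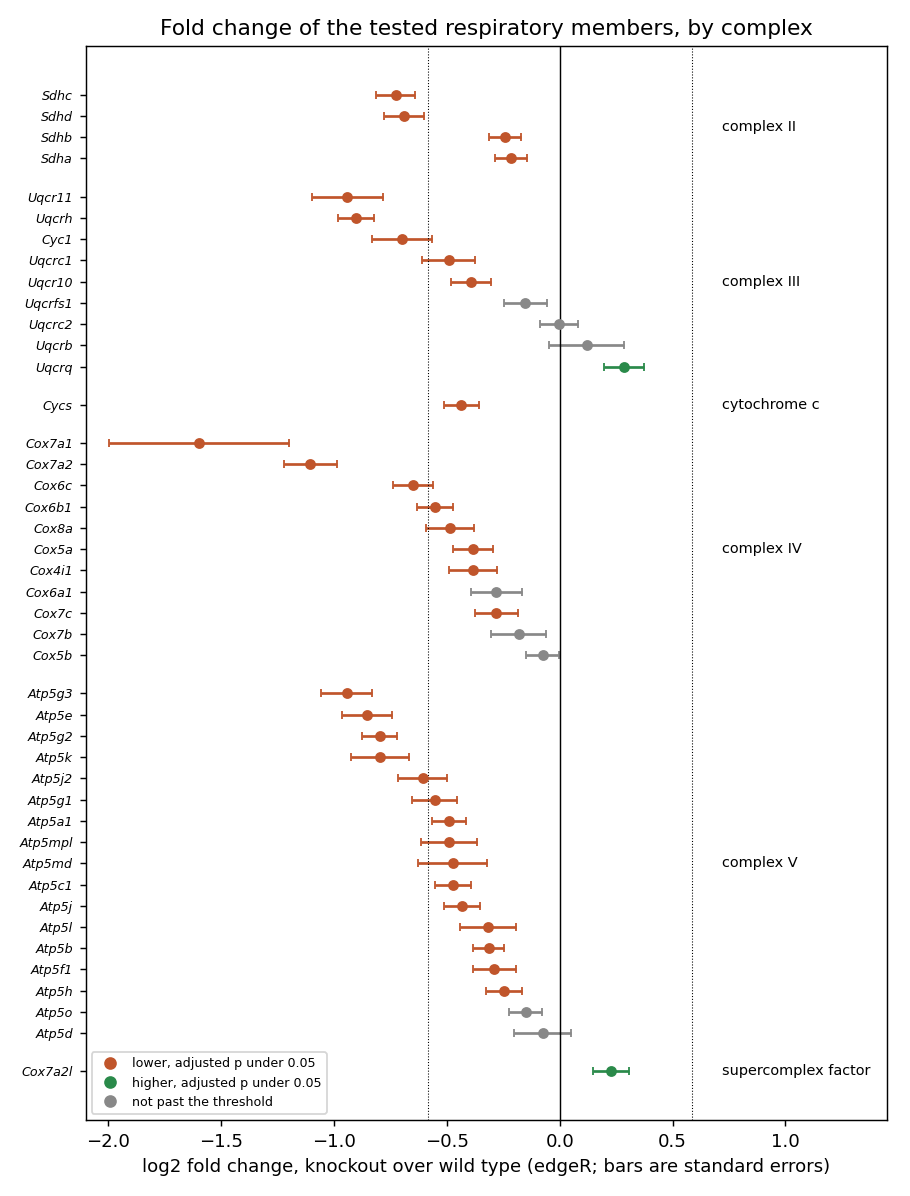
Log2 fold change of each tested member, knockout over wild type, with bars of 1 standard error, grouped by complex. Most points lie to the left of 0 in every complex, from -1.60 (Cox7a1) to 0.29 (Uqcrq).

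Summed over its subunits, each complex stood lower in all 3 knockout libraries than in any wild-type library. Complex II summed to 404, 409 and 424 CPM in wild type 1 to 3 and to 292, 327 and 331 CPM in knockout 1 to 3. Complex III gave 659, 664 and 712 CPM against 486, 568 and 550 CPM. The complex IV sum was 867, 777 and 878 CPM against 585, 682 and 653 CPM. The knockout mean was therefore 76.7% of the wild-type mean for complex II, 78.8% for complex III and 76.1% for complex IV. Complex V, whose sum is dominated by Atp5b and Atp5a1, gave 3014, 2904 and 3119 CPM against 2141, 2371 and 2320 CPM, or 75.6%. Cytochrome c, a single gene here, stood at 74.0%. The sums are descriptions with no test, and the 5 percentages lie within 5 points of each other.

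**Figure D2:**
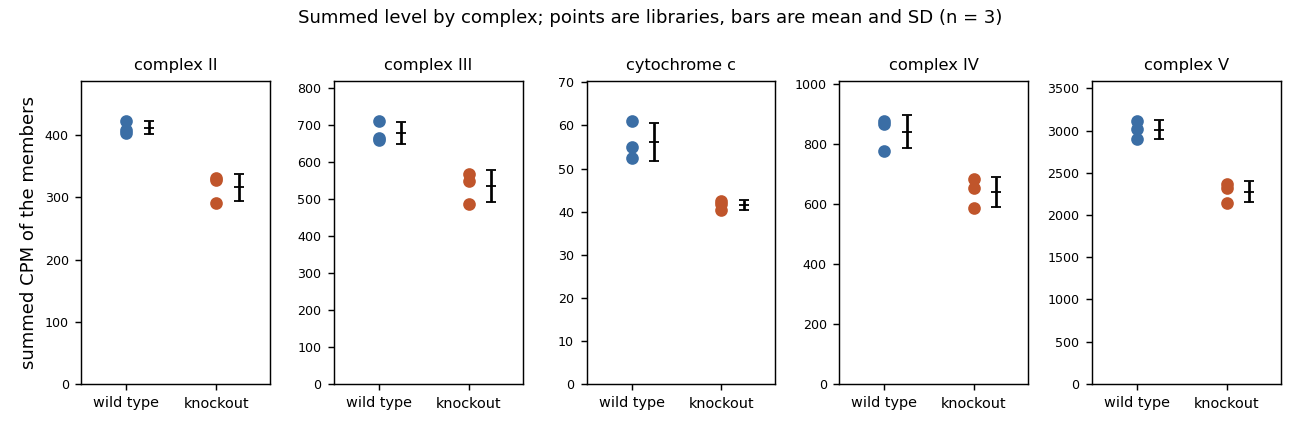
Summed CPM of the members of each complex in each library, 1 panel per complex with an axis from 0; points are the 3 wild-type and 3 knockout libraries and bars are mean and SD. The groups do not overlap in any complex, and the knockout means are between 74.0% and 78.8% of the wild-type means.

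All 4 subunits of complex II were lower, where 32.1% of all tested genes were lower. The 2 membrane anchors differed more than the 2 catalytic subunits. Sdhc, an anchor that holds haem and the coenzyme Q site with its partner, had 85.1, 82.2 and 89.8 CPM in wild type 1 to 3 and 46.0, 54.0 and 55.5 CPM in knockout 1 to 3. Its log2 fold change was -0.73 (SE 0.09, adjusted p = 8.44e-05, edgeR). The partner anchor Sdhd stood at 67.1, 62.3 and 68.1 CPM against 36.1, 44.3 and 42.0 CPM, with log2 fold change -0.69 (SE 0.09, adjusted p = 0.000144). For both anchors the lowest library was knockout 1, and the groups lay well apart.

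Sdha, the flavoprotein that oxidises succinate, was at 190.8, 207 and 204 CPM in the wild-type libraries and at 162, 177 and 180.1 CPM in knockout. Its log2 fold change was -0.22 (SE 0.07, adjusted p = 0.0237). Sdhb, the iron-sulphur subunit, was at 61.4, 57.6 and 62.1 CPM against 47.8, 52.3 and 53.0 CPM (log2 fold change -0.24, SE 0.07, adjusted p = 0.0161). Groups did not overlap for either gene. The Sdha call was lost without wild type 2, wild type 3, knockout 1 or knockout 2 (adjusted p up to 0.0881, edgeR). The Sdhb call was lost without wild type 3 (adjusted p = 0.0694, edgeR). The difference in response between anchors and catalytic subunits was not tested. On GRCm38 the 4 genes lie at chr13:74322254-74350280 (Sdha, minus strand), chr4:140961203-140979193 (Sdhb, plus), chr1:171127165-171150603 (Sdhc, minus) and chr9:50596357-50603812 (Sdhd, minus), and the count sums reads over the exons of each.

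Complex III was split: 5 of its 9 subunits were lower, 1 was higher and 3 did not pass the threshold. The shares of all tested genes were 32.1% lower and 31.9% higher. The median log2 difference of the 9 subunits was -0.39. The lowest p belonged to Uqcrh, the acidic hinge protein that helps cytochrome c dock on cytochrome c1. It had 44.7, 38.4 and 43.2 CPM in wild type 1 to 3 and 22.5 CPM in each knockout library, a 1.87-fold lower mean (log2 fold change -0.90, SE 0.08, adjusted p = 1.38e-05). Uqcr11, a small accessory subunit, stood at 43.6, 47.4 and 53.5 CPM against 19.1, 30.5 and 25.7 CPM (log2 fold change -0.94, SE 0.16, adjusted p = 0.000702). Knockout libraries were tightly grouped for Uqcrh and spread for Uqcr11, with knockout 1 lowest. On GRCm38, Uqcrh lies at chr4:116066965-116075071 and Uqcr11 at chr10:80402997-80406830, both on the minus strand.

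Of the redox subunits, Cyc1, which is cytochrome c1 and passes electrons to cytochrome c, stood at 139, 156 and 164 CPM in the wild-type libraries and at 74.3, 107 and 102 CPM in knockout (log2 fold change -0.70, SE 0.13, adjusted p = 0.00151). Uqcrfs1, the Rieske iron-sulphur protein that precedes it in the chain, was at 61.6, 59.7 and 68.4 CPM against 49.9, 59.9 and 61.0 CPM. Its log2 fold change of -0.15 (SE 0.10, adjusted p = 0.193) did not pass the threshold and the groups overlapped, although a fit with the replicate number as a block called it lower (adjusted p = 0.0117). Cytochrome b, the remaining redox subunit, is mitochondrially encoded and described further down.

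The core proteins, which form the matrix-facing part of the enzyme, did not move alike. Uqcrc1 stood at 130.2, 155 and 159 CPM in the wild-type libraries and at 88.1, 116 and 112 CPM in knockout, with log2 fold change -0.49 (SE 0.12, adjusted p = 0.00551). Its partner Uqcrc2 stood at 101, 84.6 and 86.5 CPM against 94.4, 87.3 and 90.5 CPM. The log2 fold change of Uqcrc2 was 0.00 (SE 0.08, adjusted p = 0.992), and the groups overlapped throughout. Exons of Pdzd9 on the opposite strand cover 19.7% of the exon length of Uqcrc2, and without a stated strand setting reads of the overlap cannot be told apart.

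Uqcrq, a small subunit near the coenzyme Q site, was the only tested subunit that was higher. It had 59.2, 57.7 and 65.7 CPM in wild type and 66.4, 78.7 and 77.7 CPM in knockout, with log2 fold change 0.29 (SE 0.09, adjusted p = 0.0191). The lowest knockout library lay just above the highest wild-type one. This call was lost with upper-quartile scaling and with library totals alone, and without wild type 2, knockout 2 or knockout 3 (adjusted p up to 0.0735), and without both libraries numbered 1 the log2 fold change was 0.35. Uqcr10, another small subunit, stood at 39.6, 38.0 and 40.6 CPM against 28.4, 33.8 and 27.9 CPM and was lower (log2 fold change -0.39, SE 0.09, adjusted p = 0.00443). Uqcrb, which lies beside cytochrome b, was at 39.6, 27.0 and 30.8 CPM against 43.0, 32.7 and 30.1 CPM and did not pass (log2 fold change 0.12, SE 0.17, adjusted p = 0.553), with library 1 the highest of its group on both sides.

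Cycs, the somatic cytochrome c that also has a known role in apoptosis when it leaves mitochondria, was lower. It stood at 61.1, 52.4 and 54.9 CPM in wild type 1 to 3 and at 41.7, 40.4 and 42.5 CPM in knockout 1 to 3, with a narrow spread in the knockout (41.5 ± 1.10 CPM, SD, n = 3). The log2 fold change was -0.44 (SE 0.08, adjusted p = 0.00108). Hccs, the enzyme that attaches haem to cytochromes c and c1, was at 53.4 ± 4.15 CPM in wild type, against 64.7 ± 5.47 CPM in knockout (log2 fold change 0.28, SE 0.09, adjusted p = 0.0214), a call lost with upper-quartile scaling (adjusted p = 0.0598) and with library totals alone (0.085). Cyct, the testis cytochrome c, had 1 count in each group and was not tested.

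In complex IV, 8 of 11 tested subunits were lower, none was higher and 3 did not pass, where 32.1% of all tested genes were lower. The 8 include Cox7a1, which passed the filter on low counts only through the wild-type libraries, so its call is no support. The median log2 difference was -0.39, or -0.27 without both libraries numbered 1. Cox7a2, the widely expressed form of a subunit that also contacts supercomplex partners, had 38.9, 28.8 and 36.2 CPM in wild type 1 to 3 and 15.6, 16.9 and 15.8 CPM in knockout 1 to 3, a 2.15-fold lower mean. Its log2 fold change was -1.10 (SE 0.12, adjusted p = 4.05e-05), and the gene lies at chr9:79755361-79759878 on the minus strand of GRCm38. Cox6c, a small membrane subunit, stood at 94.9, 77.9 and 87.1 CPM against 55.8, 58.2 and 51.5 CPM (log2 fold change -0.65, SE 0.09, adjusted p = 0.000206). Cox6b1, which faces the intermembrane space, stood at 67.7, 57.4 and 66.4 CPM against 42.6, 44.6 and 43.4 CPM (log2 fold change -0.55, SE 0.08, adjusted p = 0.000309). All 3 genes had groups that lay clearly apart, with the knockout libraries close to each other.

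Cox8a, at chr19:7215153-7217616 on the minus strand, stood at 117, 124 and 136 CPM against 76.0, 99.1 and 94.4 CPM (log2 fold change -0.48, SE 0.11, adjusted p = 0.0034). Cox4i1 and Cox5a, which pair early in assembly around the first catalytic subunit, both fell. Cox4i1 was at 168, 162 and 180.5 CPM against 109, 144 and 139 CPM (log2 fold change -0.38, SE 0.11, adjusted p = 0.0109). Cox5a was at 76.4, 64.0 and 70.1 CPM against 49.4, 56.8 and 55.1 CPM (log2 fold change -0.39, SE 0.09, adjusted p = 0.00431). Exons of Emc8 cover 9.94% of Cox4i1 and exons of Gm26631 cover 12.8% of Cox5a on the opposite strand, so those reads cannot be assigned.

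The remaining ubiquitous subunits of complex IV had smaller differences. Cox7c was lower at 47.5 ± 3.11 CPM against 57.7 ± 6.32 CPM in wild type (log2 fold change -0.28, SE 0.09, adjusted p = 0.0275), a call lost without wild type 1, wild type 3, knockout 1 or knockout 2 (adjusted p up to 0.0873). Cox6a1 stood at 95.1, 93.5 and 106 CPM against 66.9, 91.0 and 85.2 CPM, with groups that did not overlap but an adjusted p of 0.057. With the replicate number as a block its adjusted p was 0.000585, and without both libraries numbered 1 it was 0.00282. Cox7b had as its log2 fold change -0.18 (SE 0.12, adjusted p = 0.215, or 0.0212 with the block). Cox5b, the zinc-binding subunit, had one of -0.07 (SE 0.07, adjusted p = 0.396).

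Several complex IV subunits have tissue-specific isoforms, and those were nearly silent in both groups. Cox7a1, the muscle form, was tested on few reads, with 16, 22 and 15 counts in the wild-type libraries and 5, 8 and 3 in the knockout libraries (log2 fold change -1.60, SE 0.40, adjusted p = 0.00666). It passed the filter on low counts only through the wild-type libraries, where it is high, and was not tested with a mean of at least 1 CPM, so its call is given as a description. Per exon length it made up 2.06% ± 0.815 of the Cox7a1 and Cox7a2 sum in wild type and 1.37% ± 0.585 in knockout (exact permutation test, two-sided, p = 0.4, n = 3). Cox6a2, another muscle form, had 3 counts over the wild-type libraries and 63 over the knockout libraries, with 7, 30 and 26 in knockout 1 to 3. Its ratio of scaled counts was 22.7 (95% counting interval 7.42 to 113), and its share of the Cox6a pair was 0.0246% in wild type and 0.621% in knockout, so Cox6a1 still made up nearly all of it. The exact permutation p for that share was 0.1, the smallest that 3 against 3 libraries can give, and 0.2 after adjustment over 8 shares. Cox6a2 was not tested with all 6 libraries. It can pass the filter on low counts only through the knockout libraries, where it is high, so its entry and its call in some fits with fewer libraries are no support. Exons of Itgad cover 10.3% of its length on the opposite strand.

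Cox6b2, the testis form, went the other way, with 16 counts in wild type and 1 in knockout (ratio 0.0676, 95% counting interval 0.00161 to 0.435). Cox4i2, the lung form, had 1 and 0 counts, Cox7b2 had 0 and 2, and Cox8b and Cox8c had no count in any library. The pseudogene Cox6c2 had 18 and 7 counts (ratio 0.420, interval 0.148 to 1.06). These intervals cover counting error only. Cox7a2l, the supercomplex factor, stood at 71.7, 64.3 and 73.2 CPM in the wild-type libraries and at 75.8, 84.3 and 84.7 CPM in knockout (log2 fold change 0.23, SE 0.08, adjusted p = 0.0316). Every knockout library lay above every wild-type one, but the call was lost with upper-quartile scaling and with library totals, and without wild type 2, wild type 3, knockout 2 or knockout 3 (adjusted p up to 0.148).

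In complex V, 15 of the 17 genes were lower and none was higher, where 32.1% of all tested genes were lower and 31.9% higher. All 17 log2 fold changes lay below 0, from -0.94 to -0.07, with a median of -0.47. Complex IV likewise had no higher gene and all 11 tested values below 0, with Cox7a1, which passed the filter only through the wild-type libraries, among the 11. The catalytic head carries the alpha and beta subunits, between which ATP is made. Atp5a1, the alpha subunit, stood at 619, 653 and 683 CPM in wild type 1 to 3 and at 423, 489 and 481 CPM in knockout 1 to 3 (log2 fold change -0.49, SE 0.08, adjusted p = 0.000494). Atp5b, the beta subunit, stood at 1041, 1050.5 and 1077 CPM against 791, 876 and 880.2 CPM (log2 fold change -0.31, SE 0.07, adjusted p = 0.00289). Both groups were tight and lay well apart.

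In the central stalk, which turns inside the head, Atp5c1 (gamma) was lower with log2 fold change -0.47 (SE 0.08, adjusted p = 0.000816). Atp5e (epsilon), at chr2:174461072-174464105 on the minus strand, stood at 33.4, 27.7 and 33.0 CPM against 16.0, 19.6 and 16.5 CPM (log2 fold change -0.85, SE 0.11, adjusted p = 0.000152). Atp5d (delta), the third stalk protein, was at 114, 140.1 and 149 CPM against 108, 139.8 and 136 CPM. It did not pass (log2 fold change -0.07, SE 0.13, adjusted p = 0.624), and its groups overlapped. The 3 proteins of 1 stalk thus had values from -0.85 to -0.07.

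The membrane ring that the proton flow turns is made of identical c subunits, and 3 nuclear genes encode the same mature protein. Atp5g3 stood at 155, 154 and 177 CPM in the wild-type libraries and at 70.0, 91.6 and 91.0 CPM in knockout (log2 fold change -0.94, SE 0.11, adjusted p = 8.62e-05). Atp5g2 stood at 85.5, 84.8 and 95.1 CPM against 49.5, 54.5 and 48.7 CPM (log2 fold change -0.80, SE 0.08, adjusted p = 2.6e-05). Atp5g1 was at 70.3, 70.1 and 79.7 CPM against 44.5, 56.3 and 49.2 CPM (log2 fold change -0.55, SE 0.10, adjusted p = 0.0011). All 3 fell with no overlap between groups. The genes lie at chr11:96068852-96075670 (Atp5g1), chr15:102662864-102672352 (Atp5g2) and chr2:73908447-73911326 (Atp5g3), each on the minus strand.

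Scaled by summed exon length, Atp5g3 gave the largest share of the c-subunit message in wild type, at 52.1%, 52.1% and 52.6% of the 3-gene sum, and in knockout it gave 45.4%, 48.8% and 51.6%. The share of Atp5g1 was 10.5% in each wild-type library and 12.8%, 13.3% and 12.4% in knockout 1 to 3. Neither share overlapped between groups, but with 3 libraries each the exact permutation test cannot go below p = 0.1, which both reached (0.2 adjusted over 8 shares). These levels depend on the length used: with principal transcript lengths Atp5g3 held 41.2% and Atp5g1 22.4% in wild type. The Atp5g1 difference of 2.33 percentage points became 4.35 with raw counts and 4.06 with principal transcript lengths. Atp5g2 held 37.2% ± 0.285 in wild type and 38.5% ± 2.99 in knockout (exact permutation p = 0.7, n = 3).

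The peripheral stalk holds the head still. Its subunits Atp5j (F6), Atp5f1 (b) and Atp5h (d) were lower, with log2 fold changes of -0.43, -0.29 and -0.25 (adjusted p = 0.00131, 0.0236 and 0.0236). Atp5o, the oligomycin sensitivity protein that ties the stalk to the head, had as its log2 fold change -0.15 (SE 0.07, adjusted p = 0.103, or 0.0114 with the replicate number as a block). Exons of Gabpa cover 12.7% of Atp5j on the opposite strand, and Gabpa itself was higher in the knockout.

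Small membrane subunits that link synthase monomers were also lower. Atp5k (e), Atp5j2 (f), Atp5mpl and Atp5md had log2 fold changes of -0.80, -0.61, -0.49 and -0.47, and Atp5l (g) one of -0.32. Their adjusted p values were 0.000582, 0.00109, 0.00759, 0.0212 and 0.0494, in that order. The groups of Atp5md and Atp5l overlapped, with wild type 2 within the knockout range for Atp5l. The Atp5l call was also lost with DESeq2 size factors (adjusted p = 0.0555), with limma-voom (0.0559) and with a mean of at least 1 CPM (0.0506). The calls of Atp5l, Atp5f1, Atp5h and Atp5md did not hold in every fit that left out 1 library, with adjusted p up to 0.176, 0.0885, 0.0904 and 0.0745.

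**Figure D3:**
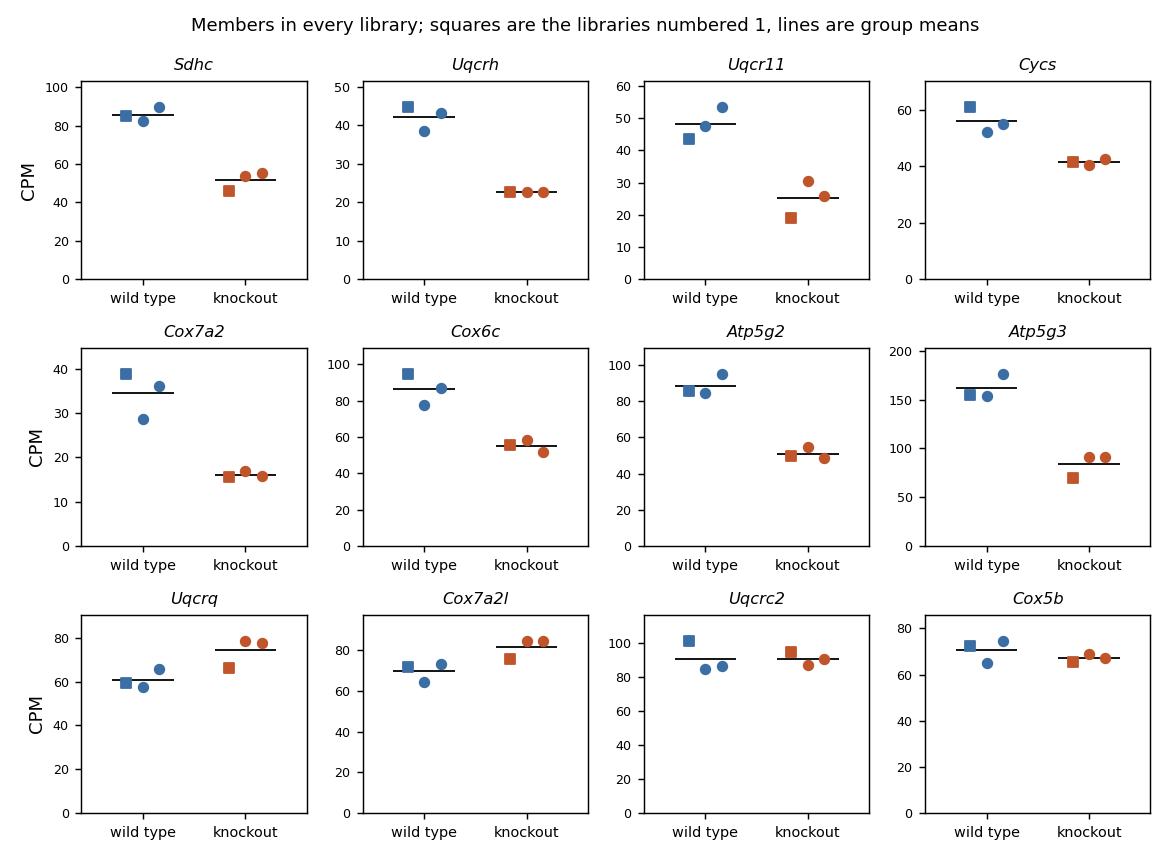
CPM of 12 members in each library, wild type on the left and knockout on the right of each panel; squares are the libraries numbered 1 and lines are group means. The knockout points of Sdhc, Uqcrh, Uqcr11, Cycs, Cox7a2, Cox6c, Atp5g2 and Atp5g3 lie below all wild-type points, those of Uqcrq and Cox7a2l lie above, and those of Uqcrc2 and Cox5b overlap.

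The libraries numbered 1 stood apart from the others in both groups. Chi-square per degree of freedom, taken between the counts of replicates, was 29.7 to 48.4 for pairs that include a library numbered 1 and 3.41 to 4.61 for the other pairs, among genes that reached 20 counts over each pair. Over the 43 tested members, knockout 1 was the lowest of its group for 28 and the highest for 8, whereas wild type 1 was the highest for 21 and the lowest for 9. The deviations of the members in the 2 libraries from their group partners ran in parallel across genes (Spearman's rho 0.81, n = 43). Across the 41 members with a transcript GC value (39.9% to 61.1%), those deviations fell with GC content, with rho of -0.70 in wild type 1 and -0.67 in knockout 1, while the fold change itself had a rho of -0.26 with GC. These are descriptions across genes, which are not independent replicates and share 1 library on each side. Uqcrb, of low GC, was 0.46 higher on the log2 scale than its partners in both libraries, and Atp5d, of high GC, was 0.34 and 0.36 lower. Without both libraries, no member lost its call.

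**Figure D4:**
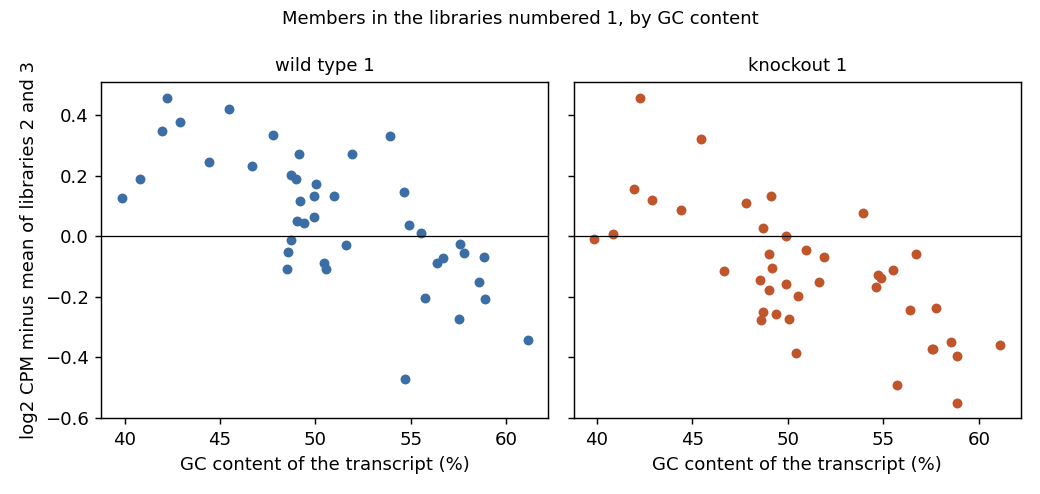
Deviation of each member in wild type 1 (left) and knockout 1 (right) from the mean of libraries 2 and 3 of its group, as log2 CPM, against the GC content of its transcript in percent; each point is 1 of 41 members. In both libraries the points tend to fall from low to high GC (rho -0.70 and -0.67).

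The subunits are put together by dedicated assembly factors. Of the 4 for complex II, Sdhaf1 and Sdhaf4 were lower and Sdhaf3 was higher, where 32.1% of all tested genes were lower and 31.9% higher. Their log2 fold changes were -0.57, -0.39 and 0.37 for Sdhaf1, Sdhaf4 and Sdhaf3 (adjusted p = 0.00774, 0.0357 and 0.0495, edgeR). Without both libraries numbered 1 only Sdhaf1 remained past the threshold, with adjusted p of 0.175 for Sdhaf3 and 0.219 for Sdhaf4. Sdhaf2, which helps attach the flavin to Sdha, had as its log2 fold change 0.07 (adjusted p = 0.543).

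For complex III, 4 of 6 factors were lower and Ttc19 was higher, where 32.1% of all tested genes were lower and 31.9% higher. The median log2 difference of the 6 was -0.54. Uqcc3 and Uqcc2, which act on newly made cytochrome b, had -0.86 and -0.67, and Lyrm7 and Bcs1l, which handle the Rieske protein, had -0.55 and -0.53 (adjusted p = 0.00263, 0.001, 0.0194 and 0.000608). Ttc19, which clears Rieske fragments, had 0.30 (adjusted p = 0.0265), a call lost with upper-quartile scaling (0.0645) and with library totals (0.0873). Uqcc1 had 0.13 (adjusted p = 0.154, or 0.0315 with the replicate block).

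Of the 24 complex IV factors, 23 were tested: 6 were lower, 4 were higher and 13 did not pass, neither share above that of all tested genes, with a median of 0.03, and with the replicate block the counts were 9 and 5. Cox15, which makes the haem a of the enzyme, fell from 34.1 ± 0.420 to 19.0 ± 0.0600 CPM (SD, n = 3; log2 fold change -0.84, adjusted p = 8.46e-06, edgeR). Coa3, which stabilises the first catalytic subunit as it is made, fell from 25.9 ± 3.07 to 12.1 ± 0.561 CPM (log2 fold change -1.09, adjusted p = 2.25e-05, edgeR). Fastkd3, a mitochondrial RNA-binding protein, rose from 11.3 ± 0.437 to 17.8 ± 0.762 CPM (log2 fold change 0.65, adjusted p = 0.00015, edgeR). Ndufa4, which is counted today among the subunits of complex IV, fell from 50.6 ± 8.61 to 35.0 ± 1.58 CPM (log2 fold change -0.53, adjusted p = 0.00357, edgeR). Higd1a and Higd2a had -0.06 and 0.19 (adjusted p = 0.637 and 0.104, and 0.00972 for Higd2a with the replicate block).

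Of the 4 genes for assembly and inhibition of complex V, 1 was lower, a share not above the 32.1% of all tested genes. Atpaf1, which chaperones the beta subunit in assembly, fell from 10.7 ± 0.708 to 5.44 ± 0.146 CPM (log2 fold change -0.98, adjusted p = 2.58e-05, edgeR). Atpaf2, the chaperone of the alpha subunit, had -0.07 (adjusted p = 0.477). Tmem70, which helps form the c ring, and Atpif1, the natural inhibitor, had -0.18 and -0.15 (adjusted p = 0.0683 and 0.215, and 0.003 and 0.0233 with the replicate block).

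The partner subunits encoded in mitochondrial DNA had enough counts to compare for few genes. The cytochrome b gene mt-Cytb stood at 4667, 3313 and 3566 CPM in the wild-type libraries and at 3376, 2376 and 2417 CPM in knockout (log2 fold change -0.50, SE 0.16, adjusted p = 0.0248). In each group library 1 was the highest, and the groups overlapped. The gene of the first catalytic subunit of complex IV, mt-Co1, was at 9164, 6718 and 7167 CPM against 10534, 7455 and 7698 CPM and did not pass (log2 fold change 0.16, SE 0.16, adjusted p = 0.403), but was called higher with the replicate block (0.00039). The call of mt-Co2 as higher rested on knockout 1, which held 329 of its 356 knockout counts, and without both libraries numbered 1 its adjusted p was 0.151. The other 3 genes were at very low counts: mt-Atp6 had 28 and 34 counts over wild type and knockout (adjusted p = 0.497), mt-Co3 had 14 and 22, and mt-Atp8 had 1 and 1. By comparison, mt-Co1 had 1048817 and 1076847 counts. Reads of near-identical copies cannot be separated here, and whether the low counts of these 3 genes and of mt-Co2 reflect low message was not tested.

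Around the chain, the TCA cycle and the ATP carriers were also mostly lower. Of 14 TCA enzymes beside complex II, 10 were lower, 2 were higher and 2 did not pass, with a median log2 difference of -0.37, where 32.1% of all tested genes were lower and 31.9% higher. Suclg1 and Suclg2, which make the succinate that complex II uses, fell from 81.1 ± 4.45 to 37.8 ± 1.59 CPM and from 75.6 ± 6.40 to 35.2 ± 1.58 CPM (log2 fold change -1.10 for both, adjusted p = 2.27e-06 and 4.46e-06, edgeR). Sucla2, of the same list, had -0.18 and did not pass (adjusted p = 0.0945, or 0.000801 with the replicate block, edgeR). Idh2, the NADP-dependent isocitrate dehydrogenase, fell from 129 ± 6.70 to 65.0 ± 7.39 CPM (log2 fold change -0.99, adjusted p = 1.93e-05, edgeR). Dld and Dlst, which are subunits of the 2-oxoglutarate dehydrogenase complex, were higher, with log2 fold changes of 0.75 and 0.28.

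Slc25a4, an ADP/ATP carrier of the inner membrane that is best known in heart and muscle, showed a larger fold change than any tested member. It fell from 341, 343 and 366 CPM to 81.5, 94.0 and 94.8 CPM (log2 fold change -1.96, SE 0.08, adjusted p = 1.19e-07). Slc25a5, the carrier of proliferating cells, fell from 396 ± 16.9 to 217 ± 9.18 CPM (log2 fold change -0.87, adjusted p = 5.24e-06, edgeR). Slc25a3, the phosphate carrier, fell from 484 ± 7.98 to 424 ± 9.93 CPM (log2 fold change -0.19, adjusted p = 0.0181, edgeR). Slc25a31, the testis carrier, had no count.

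Of the 13 genes of coenzyme Q synthesis, 4 were higher, 2 were lower and 7 did not pass; the higher share is near the 31.9% of all tested genes. Coq10b, a coenzyme Q-binding protein, rose from 38.8 ± 4.22 to 62.3 ± 5.80 CPM (log2 fold change 0.68, adjusted p = 0.000343, edgeR), and Coq3 rose with log2 fold change 0.49 (adjusted p = 0.0028, edgeR). Pdss1, which starts the side chain, fell from 15.8 ± 1.82 to 9.76 ± 1.499 CPM (log2 fold change -0.69, adjusted p = 0.00164, edgeR).

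Regulators of respiratory genes were more often higher than lower, opposite to most of the subunits. Of 15 tested, 9 were higher, 2 were lower and 4 did not pass, with a median log2 difference of 0.40, where 31.9% of all tested genes were higher and 32.1% lower. The counts were 7 higher and 2 lower with library totals alone. Esrrb, among the higher, had 6 and 53 counts over the groups. It passed the filter on low counts only through the knockout libraries, so its call is no support. The 9, the 7 and the median of 0.40 all include Esrrb and would be smaller without it. Gabpb1 and Gabpb2, partners of the ETS factor GABP, rose from 32.8 ± 3.08 to 59.9 ± 5.27 CPM and from 96.8 ± 3.28 to 138 ± 8.33 CPM (log2 fold change 0.87 and 0.51, adjusted p = 5.22e-05 and 0.000214, edgeR). Pprc1, a PGC-1 coactivator, was at 179 ± 14.2 CPM and 121 ± 7.32 CPM and thus fell (log2 fold change -0.57, adjusted p = 0.000277, edgeR). Ppargc1a, the best known PGC-1 coactivator, had 17 and 25 counts over the groups and was not tested.

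**Figure D5:**
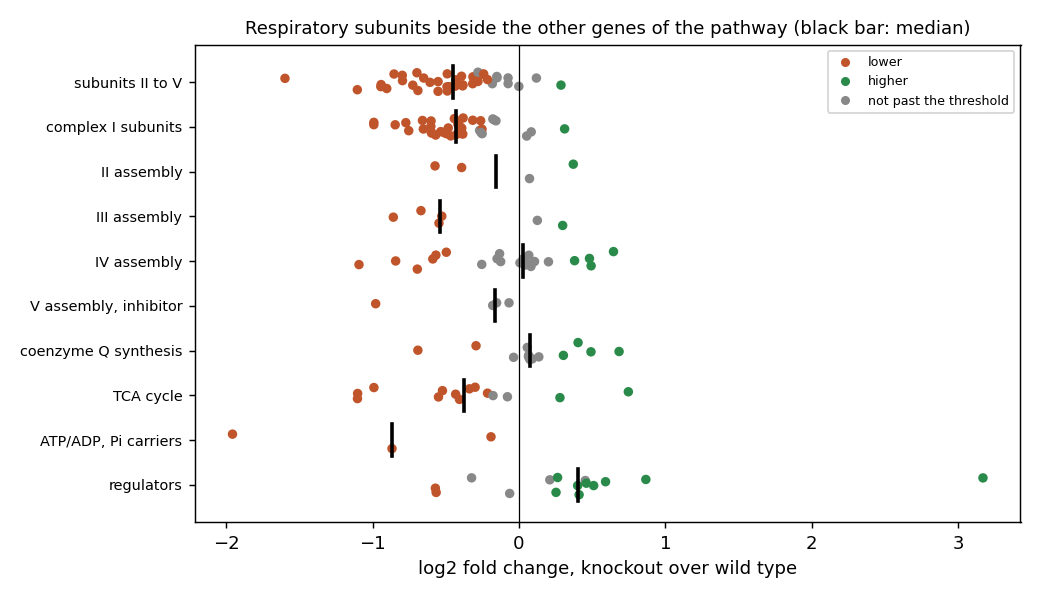
Log2 fold change of every tested gene, knockout over wild type, for the subunits of complexes II to V with cytochrome c and for the lists drawn. Black bars are medians and colours give the call. The mitochondrially encoded subunits, Hccs, and the complex IV subunits Ndufa4, Higd1a and Higd2a are not drawn. The subunit, TCA and carrier medians lie left of 0 (-0.45, -0.37 and -0.87) and the regulator median lies right of it (0.40). The point at 3.17 is Esrrb, with 6 and 53 counts over the groups, and the regulator median includes it.

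Complex I, the entry point for NADH, was counted alongside for comparison. Of its 36 subunit genes, 27 were lower, 1 was higher and 8 did not pass, with a median log2 difference of -0.43 and 4 genes lower past 1.5-fold. For the 42 tested subunits of complexes II to V and cytochrome c, those counts were 33, 1 and 8, with a median of -0.45 and 7 genes past 1.5-fold. The 33 and the 7 include Cox7a1, which passed the filter on low counts only through the wild-type libraries. Over all tested genes, 32.1% were lower, 31.9% were higher and 13.2% were lower past 1.5-fold. The counts of 4 and 7 genes past 1.5-fold are thus near the share of all genes. The values of complex I and of the other complexes stand side by side with no test of a difference.

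Among the members, exon length and log2 fold change had a Spearman's rho of 0.11 (n = 42 genes), beside 0.06 over 14770 genes, as a description across genes. The members have short transcripts, with a median summed exon length of 1794 bases against 4129 over all tested genes with a length.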

How the data were processed

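The data are 6 poly(A)-selected libraries, 3 per group, grouped by their titles and genotype labels. The authors deposited raw counts per gene symbol; per the submitters' processing notes, which give no roles, the tools were STAR 2.7.1a, fastp 0.20.0, edgeR 3.34.0, limma 3.48.3 and HTSeq 0.11.2, with mm10 and GRCm38 as builds. Annotation release and strand setting of the counting were not given in the sources used here, so overlapping opposite-strand genes and near-identical copies cannot be separated.

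Counts were filtered with filterByExpr (14877 genes, 99.94% to 99.95% of each library's counts), scaled by TMM (factors 0.967 to 1.035) and tested with the quasi-likelihood test of edgeR 4.0.16 in R 4.3.3, with Benjamini-Hochberg adjustment over all tested genes and a threshold of 0.05. A second test, glmTreat, asked for a change beyond 1.5-fold. CPM is the count scaled by library size and TMM factor. Standard errors were derived from each fold change and its F value. The procedure was tested on simulated data. Isoform shares divide CPM by summed exon length (GENCODE M21, GRCm38; 49 of the 50 members matched 1 gene, Atp5o matched 2 loci and has no coordinates), with exact two-sided permutation tests over 8 shares. Intervals for low counts are exact 95% counting intervals.

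Values in every library are given for the 4 members of each complex with the smallest adjusted p, all of complex II, each higher member and a set of core subunits; other members are summarised. From each pathway list other than complex I, up to 3 genes with the smallest adjusted p are named, and all of those with at most 6 genes. Uqcrb, Cox6a1, Atp5d, Atp5g1, Dld, Dlst, Sucla2, Gabpa, Esrrb, Ppargc1a and the marker genes Vim, Pdgfra, Pdgfb, Nras, Ptprc, Kdr and Snap25 are described beyond that rule, after their values were seen. The members and lists were chosen with earlier results of these data known.

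Samples with the same replicate number deviated together (correlations 0.443, 0.161 and 0.150 over 14877 genes, a pairing that comes from the data, not the labels), so a fit with the number as a block was run beside the unblocked one. Wild type 3 with knockout 2 (0.189) and wild type 2 with knockout 3 (0.150) had correlations of like size, so the numbers set libraries 1 apart but do not tell 2 from 3. Alternatives were other scalings, filters and tests (DESeq2 1.42.0, limma-voom 3.58.1), each library left out, and both libraries numbered 1 left out.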

Additional observations from a re-analysis of the deposited data

How the results depend on the processing

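Across 15 alternatives, the direction of every called member held wherever it was tested; Cox7a1 was not tested with a mean of at least 1 CPM. With the replicate block, 11 members were lower past 1.5-fold instead of 7, and the block added Atp5o, Cox6a1, Cox7b and Uqcrfs1 to the lower members and changed no other member's call. Over all tested genes the block called 5774 lower, against 4773 in the main fit, and the fits without 1 library called 4199 to 4759. Leaving out 1 library at a time gave 27 to 33 lower members, 3 to 7 lower past 1.5-fold, 0 to 3 higher and 0 to 1 higher past 1.5-fold. The lower count past 1.5-fold was 3 without wild type 3, 4 without knockout 1 and 3 without knockout 3, with fewer samples in each fit; the higher count was 1 without wild type 2 and 0 without knockout 2 or knockout 3. The gene that was higher past 1.5-fold was Cox6a2, which passed the filter on low counts only through the knockout libraries, where it is high, and is no support; it was also past 1.5-fold without both libraries numbered 1 (1 gene). Upper-quartile scaling and library totals each gave 0 higher members; they moved the median of all genes by -0.06 and -0.08. Under them 5296 and 5497 of all genes were lower and 4298 and 4150 higher. The members' median was -0.52 with library totals, and the complex IV median -0.27 without both libraries numbered 1. The share difference of Atp5g1 was 4.35 with raw counts and 4.06 with principal lengths, a choice made after seeing the data, and that of Cox6b2 was -0.155 and -0.205 instead of -0.0989 points. The fits of the pathway lists under other settings were also chosen after seeing the data. Uqcrc2, near 0 throughout, changed sign to 0.010 with DESeq2 size factors and in DESeq2, 0.00507 without a filter, 0.0024 with limma-voom, 0.0014 with the block and 0.062 without both libraries numbered 1, and ranged from -0.047 to 0.086 when 1 library was left out, above 0 without wild type 1, knockout 2 or knockout 3. With 1 library left out, Atp5d ranged from -0.18 to 0.049 (above 0 without wild type 3 or knockout 1) and Uqcrb from -0.039 (without knockout 1) to 0.29. The cause was not tested. Depth limits the nearly silent isoforms, such as Cox6a2, whose ratio had an interval from 7.42 to 113.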
